A study of Homo sapiens with 6 samples.

Results

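The clustered protocadherins are 53 protein-coding genes in a row on chromosome 5 (chr5:140786136-141512981, GRCh38), and their transcripts were examined in H2452 cells, an established line of human pleural mesothelioma, with and without a guide RNA against *NF2*. The members were found in the count table by chromosome, biotype and symbol, which gave 15 alpha, 16 beta and 22 gamma genes among 58735 genes. The family was chosen by its lower values in this same contrast, with PCDHB10 known to be among the largest decreases, so the fold changes of the members are given as a description and no p-value is attached to them. RNA was sequenced from 3 libraries of sgCtrl cells, labelled WT, which carried a scrambled control guide, and from 3 libraries of sgNF2-1 cells, labelled NF2-KO, which carried a guide against *NF2*. In both groups Cas9, the guide and the mCherry marker came from a lentivirus, and mCherry-positive cells were isolated by flow cytometry after 3 days of infection, with no selection of single clones described. The labels do not state that the 3 libraries of a group came from separate cultures. The paper describes its data in general as biological replicates. It does not describe separate cultures for these libraries, so the spread between them may be technical.

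Protocadherins are cell-surface proteins of the cadherin superfamily with extracellular cadherin repeats, a single membrane-spanning segment and a cytoplasmic tail, and those of the clustered group are best known in neurons, where each cell uses its own mixture of isoforms and like isoforms bind each other across cell contacts. In the alpha and gamma clusters each gene has its own large first exon, with its own promoter, which is spliced to constant exons shared by the whole cluster. Beta genes are single-exon genes with no constant part. Promoter choice is known to involve DNA methylation, the insulator protein CTCF and the cohesin ring, and most promoters carry a conserved sequence element around the letters CGCT.

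Promoter windows of RefSeq (GRCh38.p14, 250 bases before to 50 bases after the gene start) were held for 47 of the 53 members, and stretches of 44 bases around the element are shown because they give each cluster a sequence signature that the selection of the members did not use. The capitals mark the motif of the cluster and every stretch is on the plus strand.
PCDHB7, chr5:141172560-141172603: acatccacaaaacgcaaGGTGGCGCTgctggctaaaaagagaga
PCDHB10, chr5:141192293-141192336: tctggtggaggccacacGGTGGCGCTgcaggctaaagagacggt
PCDHB14, chr5:141223257-141223300: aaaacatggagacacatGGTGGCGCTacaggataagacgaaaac
PCDHB16, chr5:141182304-141182347: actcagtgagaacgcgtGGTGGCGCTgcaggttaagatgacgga
PCDHB15, chr5:141245308-141245351: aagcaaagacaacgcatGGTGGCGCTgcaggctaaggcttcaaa
PCDHA10, chr5:140855835-140855878: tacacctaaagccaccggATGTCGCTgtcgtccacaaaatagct
PCDHA7, chr5:140834166-140834209: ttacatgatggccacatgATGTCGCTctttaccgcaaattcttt
PCDHGA2, chr5:141338697-141338740: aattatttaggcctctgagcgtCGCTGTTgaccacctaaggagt
PCDHGA7, chr5:141382643-141382686: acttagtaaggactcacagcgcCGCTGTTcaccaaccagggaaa
PCDHGB5, chr5:141397857-141397900: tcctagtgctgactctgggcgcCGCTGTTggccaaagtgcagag
PCDHGA10, chr5:141412925-141412968: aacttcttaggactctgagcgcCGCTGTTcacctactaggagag

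The 3 motifs were picked after these windows had been read, each contains CGCT, and both strands were searched. GGTGGCGCT stood on the gene strand of 13 of the 14 beta genes with a window, all except PCDHB1, and in 0 of 13 alpha and 0 of 20 gamma genes, against 0.374% of all 27305 genes with a window. ATGTCGCT stood on the gene strand of 9 of 13 alpha genes, and in no beta or gamma gene, against 0.183% of all genes. CGCTGTT stood on the gene strand of 13 of 20 gamma genes and of 1 of 14 beta genes, against 1.47% of all genes. On the opposite strand the members held none of the 3, and the shares of all genes there were 0.245%, 0.0989% and 1.3%. The beta motif was present in PCDHB10 and PCDHB14 as it was in PCDHB15, whose counts were not lower in sgNF2-1 cells. PCDHB1, the only beta gene with a window that lacked it, had no counts in any library. Beta genes with and without the motif could therefore not be compared, and its bearing on the values was not tested. No member window matched the CTCF core consensus on either strand, which 0.582% of all genes did, and this says only that those letters are not in these windows.

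The windows of the C-type genes PCDHAC1, PCDHAC2, PCDHGC3 and PCDHGC4 were 59.0% to 66.0% G or C. With 1 window a gene, the first along the chromosome, the other alpha, beta and gamma members spanned 32.3% to 51.3%, but further windows of PCDHGB1, PCDHGB4, PCDHGB5 and PCDHGB6 reached 51.7%, 58.7%, 60.0% and 65.0%. The whole windows of PCDHB14 (chr5:141223093-141223392, plus strand) and of PCDHGC3 (chr5:141475716-141476015, plus strand) are shown, with every CGCT of the gene strand in capitals, because these genes had the highest counts of their clusters among members with a window.
PCDHB14: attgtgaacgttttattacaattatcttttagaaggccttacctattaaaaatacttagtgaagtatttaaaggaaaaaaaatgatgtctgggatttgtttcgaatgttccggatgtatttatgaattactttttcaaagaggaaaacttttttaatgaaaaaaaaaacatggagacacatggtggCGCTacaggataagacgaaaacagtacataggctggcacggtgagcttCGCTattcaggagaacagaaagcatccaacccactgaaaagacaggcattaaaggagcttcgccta
PCDHGC3: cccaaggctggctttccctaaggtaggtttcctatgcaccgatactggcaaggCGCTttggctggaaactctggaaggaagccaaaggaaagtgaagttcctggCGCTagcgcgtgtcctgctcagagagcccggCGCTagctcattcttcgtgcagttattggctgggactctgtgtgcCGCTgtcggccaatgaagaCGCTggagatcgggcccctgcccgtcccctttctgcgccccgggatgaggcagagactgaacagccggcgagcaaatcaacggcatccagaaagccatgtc
CGCT occurred 2 times in the PCDHB14 window and 5 times in the PCDHGC3 window.

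The libraries held 14782423 to 17416463 counts, and 14179 genes passed the filter on low counts. *NF2*, the targeted gene, had 1162, 1197 and 1025 counts in sgCtrl cells and 692, 802 and 590 in sgNF2-1 cells (log2 fold change -0.69, SE 0.10, adjusted p = 7.87e-06 by edgeR's quasi-likelihood test with Benjamini-Hochberg adjustment), and a guide that breaks the reading frame need not remove the transcript. Of 10 mesothelial markers, 8 had a CPM, the count scaled to library size, of 1 or more in every library. Libraries of a group correlated at 0.992 to 0.995 over the tested genes (Pearson, log2 of CPM + 1), and libraries of different groups at 0.978 to 0.981. In these bulk samples, fewer cells that use a gene and less RNA per cell cannot be told apart.

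Summed over their members, the beta and gamma clusters were lower in sgNF2-1 cells and the alpha cluster was not. Counts were scaled to CPM on TMM-adjusted library sizes and summed over each cluster. The beta sum was 16.2, 15.4 and 12.9 CPM in the 3 sgCtrl libraries and 4.21, 4.86 and 3.44 CPM in the 3 sgNF2-1 libraries. Its mean thus went from 14.8 ± 1.71 to 4.17 ± 0.71 CPM (SD, n = 3), a log2 ratio of -1.83, and the groups did not overlap. The gamma sum was 237, 287 and 268 CPM in sgCtrl and 154, 164 and 149.9 CPM in sgNF2-1, with means of 264 ± 25.5 and 156 ± 7.47 CPM and a log2 ratio of -0.76. Here too every sgNF2-1 library lay below every sgCtrl library. The alpha sum was 3.43, 1.65 and 2.31 CPM in sgCtrl and 3.30, 2.40 and 3.09 CPM in sgNF2-1, and these ranges overlapped. PCDHAC2 alone made up 69.8% of the alpha counts in sgCtrl and 87.8% in sgNF2-1, so the alpha sum mostly reflects this gene.

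**Figure D1:**
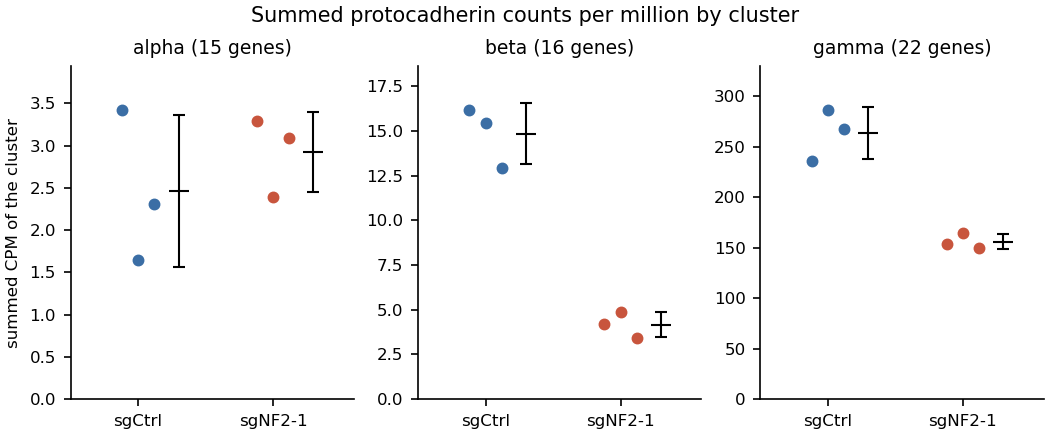
Summed CPM of the 15 alpha, 16 beta and 22 gamma members (vertical axes from 0, one scale per panel) in each of 3 sgCtrl and 3 sgNF2-1 libraries, with points for libraries and bars for the mean ± SD. The beta means are 14.8 and 4.17 CPM and the gamma means 264 and 156 CPM with no overlap between groups, while the alpha points overlap.

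Among the 53 members, the gamma cluster held 93.9% of the summed CPM in sgCtrl and 95.7% in sgNF2-1. The beta share was 5.28% in sgCtrl and 2.56% in sgNF2-1, and the alpha share 0.875% and 1.79%. Counts over 24 of the 53 members, 1 alpha, 6 beta and 17 gamma genes, passed the filter and entered the fit across all genes. Of these 24, 12 were called lower in sgNF2-1 (adjusted p under 0.05 and an absolute log2 fold change over 0.5), namely 4 beta and 8 gamma genes, where 9.32% of all 14179 tested genes were called lower. None was called higher, where 8.42% of all tested genes were. As the family was selected on this contrast, nothing is read from these counts. The median log2 fold change was -1.77 over the 6 tested beta members and -0.68 over the 17 tested gamma members, beside -0.003 over all tested genes. Members such as PCDHB7 and PCDHB10 passed the filter through their sgCtrl counts, so these medians depend partly on the filter. With at least 10 counts required in every library, PCDHB7, PCDHB10, PCDHB13 and PCDHGB1 were not tested. In 15 of the 24 every sgNF2-1 library was below every sgCtrl library in CPM, which held for 22.2% of all tested genes, and in 1 every sgNF2-1 library was above, which held for 23.2%. Without sgCtrl replicate 2, 7 of the 12 calls remained, and those of PCDHB13, PCDHGA2, PCDHGA9, PCDHGB4 and PCDHGB6 were lost.

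**Figure D2:**
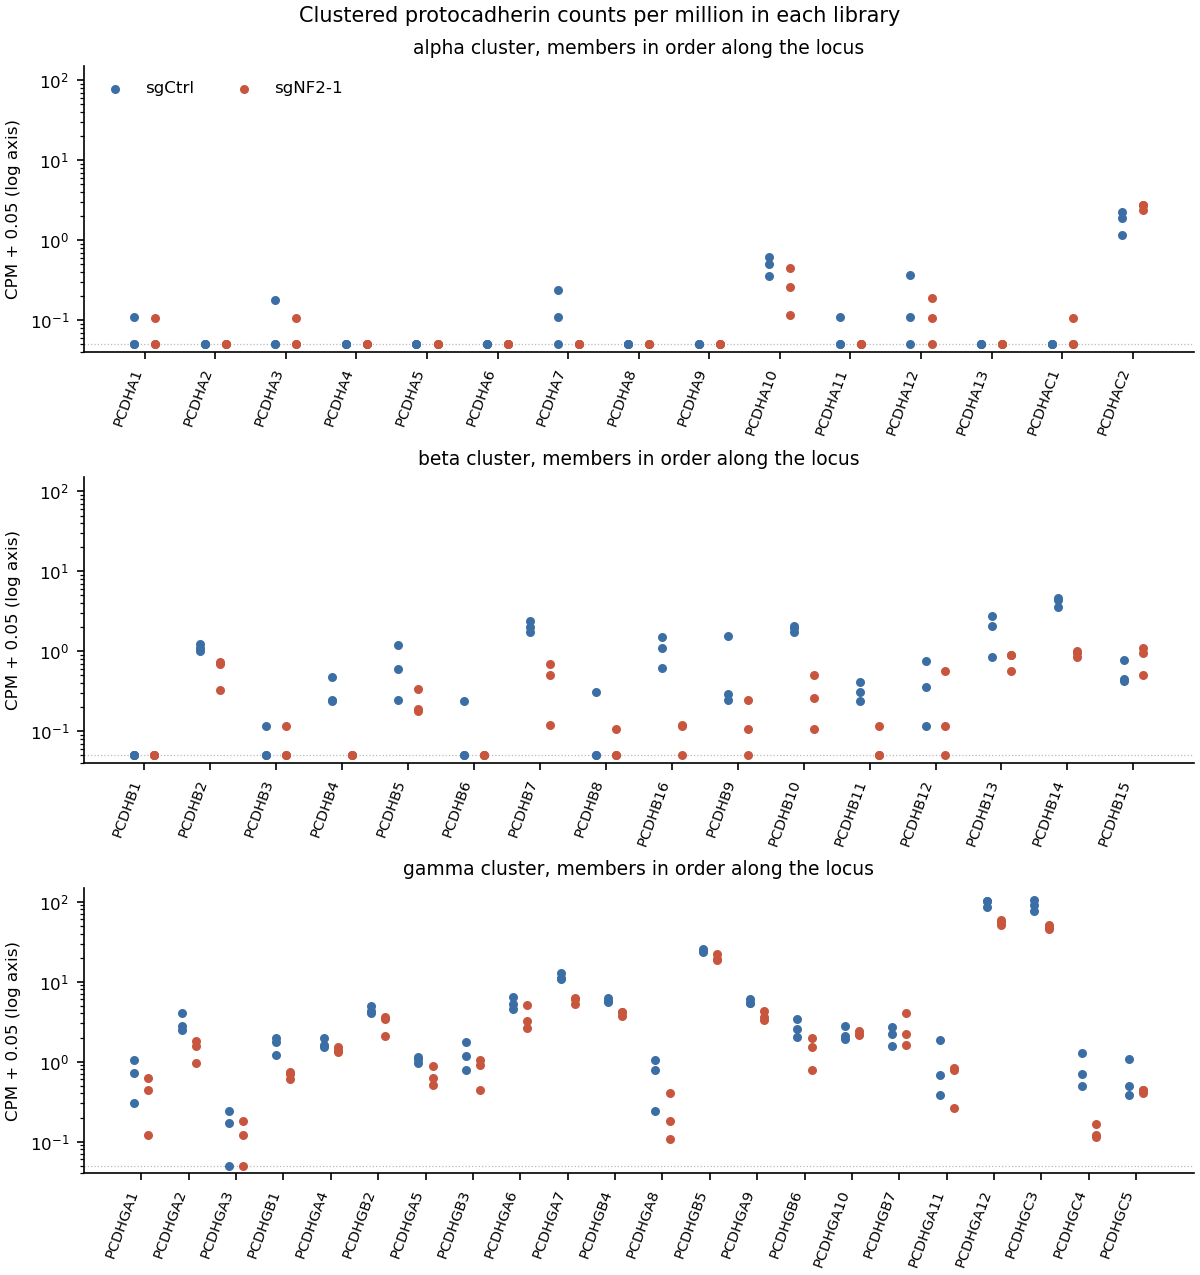
CPM + 0.05 (log axis) of each of the 53 members in order along the locus, with one point for each of 3 sgCtrl and 3 sgNF2-1 libraries and a dotted line where the count is 0. PCDHGA12 and PCDHGC3 stand highest, most beta points of sgNF2-1 lie under those of sgCtrl, and in the alpha panel PCDHAC2 alone exceeds 1 CPM in every library.

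Among the beta genes, PCDHB14 had the highest count, at 73, 71 and 54 counts in sgCtrl and 14, 15 and 13 in sgNF2-1. The groups were far apart and each was tight, and the fitted log2 fold change was -2.22 (SE 0.30). PCDHB10 had 27, 33 and 29 counts in sgCtrl and 1, 7 and 3 in sgNF2-1, with a log2 fold change of -2.96 (SE 0.51), or -3.81 without sgNF2-1 replicate 2. It ranked as the 12th lowest log2 fold change of the 14179 tested genes, which is the kind of value by which the family came to be chosen. PCDHB7 had 31, 28 and 36 counts in sgCtrl and 8, 10 and 1 in sgNF2-1, with a log2 fold change of -2.31 (SE 0.47). The single-exon beta genes PCDHB7, PCDHB10 and PCDHB14 were thus each at less than 1 CPM in sgNF2-1 cells (means of 0.391 ± 0.294, 0.24 ± 0.20 and 0.893 ± 0.0897 CPM, SD, n = 3) against 2.02 ± 0.336, 1.88 ± 0.151 and 4.17 ± 0.553 CPM in sgCtrl cells.

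The other tested beta genes were more variable. PCDHB13 had 32, 44 and 12 counts in sgCtrl and 15, 8 and 12 in sgNF2-1, so that the third sgCtrl library overlapped the sgNF2-1 libraries, and its log2 fold change was -1.31 (SE 0.43). PCDHB2 had 15, 17 and 18 counts in sgCtrl and 12, 10 and 4 in sgNF2-1, which did not overlap, but at a log2 fold change of -0.94 (SE 0.45) it was not called. PCDHB15, at the gamma end of the beta row, went the other way with 6, 12 and 6 counts in sgCtrl and 8, 16 and 13 in sgNF2-1 (log2 fold change 0.64, SE 0.50), overlapped between groups and was not called.

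The 10 beta genes under the filter had at most 24 counts in a library, and PCDHB1 had none in any library. Of those 10, 8 had a lower summed count in sgNF2-1 cells and none had a higher one. PCDHB16 and PCDHB4 were chosen for naming after their values were seen. PCDHB16 had 9, 17 and 22 counts in sgCtrl and 0, 1 and 1 in sgNF2-1, a ratio of the summed counts of 0.0417 (95% interval 0.00491 to 0.159, exact conditional, counting error only). PCDHB4 had 3, 7 and 3 counts in sgCtrl and none in sgNF2-1, which is at least 4.33-fold lower against a floor of 3 counts over the group. The summed counts of all 16 beta genes were therefore lower in 13, equal in 1 and higher in 1, PCDHB15, with 1 at 0 throughout.

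Within the gamma cluster 2 genes carried most of the signal. PCDHGA12, the last of the A-type genes, had 1370, 1682 and 1559 counts in sgCtrl and 968, 901 and 731 in sgNF2-1, with a log2 fold change of -0.83 (SE 0.09). PCDHGC3, the first of the C-type genes, had 1216, 1700 and 1362 counts in sgCtrl and 803, 752 and 726 in sgNF2-1, with a log2 fold change of -0.90 (SE 0.10). Both sets of libraries were separate for both genes, which together made up 71.1% of the gamma counts in sgCtrl and 66.1% in sgNF2-1. Without this pair, a choice made after seeing the data, the gamma sum still went from 76.3 ± 4.27 to 52.7 ± 4.86 CPM (SD, n = 3), a log2 ratio of -0.53.

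PCDHGB5, the third most abundant gamma gene, moved least among the abundant ones. It had 375, 398 and 388 counts in sgCtrl and 342, 345 and 262 in sgNF2-1, and while no library overlapped in CPM its log2 fold change was only -0.29 (SE 0.12) and it was not called. PCDHGA7 had 175, 208 and 163 counts in sgCtrl and 108, 94 and 74 in sgNF2-1, with a log2 fold change of -0.98 (SE 0.16). PCDHGB4 had 90, 103 and 83 counts in sgCtrl and 65, 64 and 58 in sgNF2-1, with a log2 fold change of -0.55 (SE 0.20), just past the fold limit. Its call was lost in 5 of the 6 fits that left out a library.

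Further called gamma genes had fewer counts. PCDHGB1 had 27, 19 and 29 counts in sgCtrl and 12, 10 and 8 in sgNF2-1 (log2 fold change -1.32, SE 0.40). PCDHGA2 had 38, 65 and 41 counts in sgCtrl and 27, 27 and 13 in sgNF2-1 (log2 fold change -1.10, SE 0.32). PCDHGB6 had 31, 41 and 51 counts in sgCtrl and 13, 30 and 21 in sgNF2-1 (log2 fold change -0.92, SE 0.35), and its highest sgNF2-1 library was just below its lowest sgCtrl library. PCDHGA9 completed the 8 called gamma genes at -0.59 (SE 0.21). Of the 9 gamma genes not called, 7 had fitted log2 fold changes from -0.71 to -0.26, PCDHGA10 was at 0.003 (SE 0.29) and PCDHGB7 at 0.30 (SE 0.33).

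The A, B and C types of gamma genes did not differ in direction of their sums. The 12 A-type genes summed to 130.0 ± 10.2 CPM in sgCtrl and 74.8 ± 5.89 in sgNF2-1, the 7 B-type genes to 42.3 ± 2.18 and 32.4 ± 2.48, and the 3 C-type genes to 91.5 ± 13.9 and 48.9 ± 2.64 (SD, n = 3). In each type all sgNF2-1 libraries lay below all sgCtrl libraries, with log2 ratios of -0.80, -0.39 and -0.90. Single genes dominated these sums. In sgCtrl, PCDHGA12 made up 74.85% of the A-type counts, PCDHGB5 58.05% of the B-type and PCDHGC3 98.5% of the C-type counts. All 5 gamma genes under the filter had lower summed counts in sgNF2-1 cells. PCDHGC4, named after its values were seen, had 7, 20 and 10 counts in sgCtrl and 2, 1 and 1 in sgNF2-1, a ratio of 0.108 (95% interval 0.028 to 0.301, exact conditional, counting error only).

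The alpha cluster was close to silent. PCDHAC2, the last alpha gene, had 35, 18 and 28 counts in sgCtrl and 47, 36 and 39 in sgNF2-1, or 1.72 ± 0.572 and 2.58 ± 0.218 CPM (SD, n = 3). Every sgNF2-1 library was above every sgCtrl library, and at a log2 fold change of 0.59 (SE 0.31) it was not called. PCDHA10 had 9, 5 and 7 counts in sgCtrl and 7, 1 and 3 in sgNF2-1, which overlapped, with a ratio of the summed counts of 0.525 (95% interval 0.229 to 1.14, exact conditional). PCDHA12 had 5, 1 and 0 counts in sgCtrl and 1, 0 and 2 in sgNF2-1, PCDHA7 had 3, 1 and 0 and then none, and PCDHA3 had 2, 0 and 0 and then 1, 0 and 0. None of these 3 shows a difference at this depth. The remaining 10 alpha genes had 0 or 1 count in any library, and 7 of them, PCDHA2, PCDHA4, PCDHA5, PCDHA6, PCDHA8, PCDHA9 and PCDHA13, had none in all 6 libraries, where 0 counts in a group allow up to 3 counts over the group. Of the 14 alpha genes under the filter, 5 had a lower summed count in sgNF2-1 cells and 1 had a higher one. Without PCDHAC2 the alpha log2 ratio turned from 0.25 to -1.09, again with overlapping libraries.

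**Figure D3:**
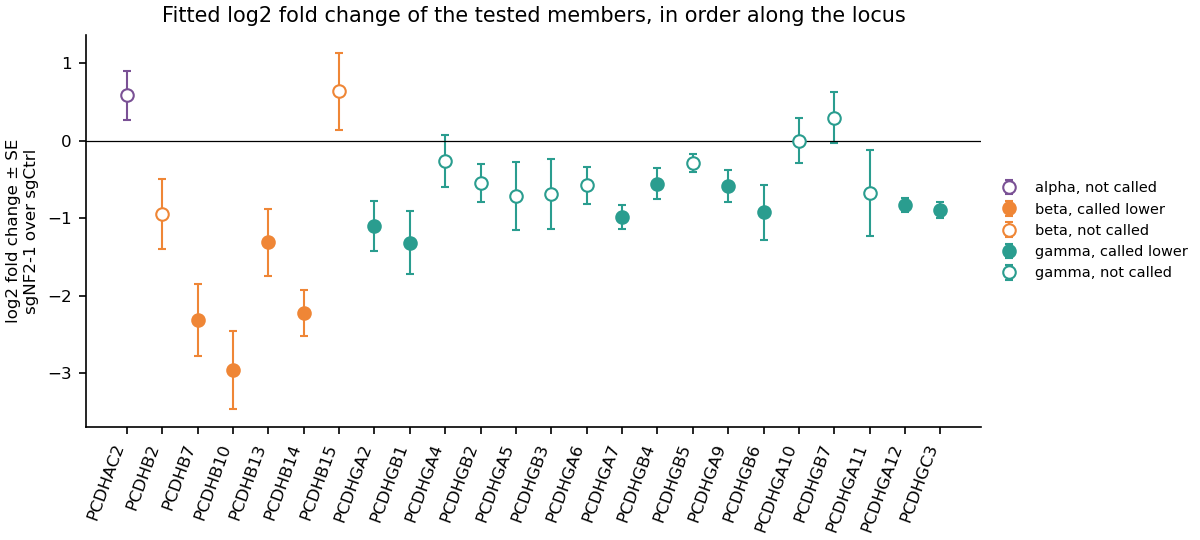
Fitted log2 fold change (sgNF2-1 over sgCtrl) with its standard error for the 24 tested members in order along the locus, with filled points for genes called lower and open points for genes not called. The beta genes from PCDHB7 to PCDHB14 reach -2.96, the gamma genes lie between -1.32 and 0.30, and PCDHAC2 and PCDHB15 are above 0.

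Order along the locus gave no simple trend. Over the 17 tested gamma genes, Spearman's rho between order and log2 fold change was 0.186, and over the 6 tested beta genes it was 0.314, both as descriptions over genes that share the same libraries. The 4 beta genes called lower, PCDHB7, PCDHB10, PCDHB13 and PCDHB14, stood at places 7, 11, 14 and 15 of the 16 in the beta row. The untested genes between them (PCDHB8, PCDHB16, PCDHB9, PCDHB11 and PCDHB12) had lower summed counts in sgNF2-1 as well. So did PCDHB2, PCDHB4, PCDHB5 and PCDHB6, which stood before them. In the gamma row the most abundant genes were at the end of the A-type genes and at the first C-type gene. Levels were compared per kilobase of exon that no other annotated gene covers. On that scale PCDHGA12 was highest in sgCtrl cells at 36.97 ± 3.44 CPM per kilobase, followed by PCDHGC3 at 27.7 ± 4.06, PCDHGB5 at 9.19 ± 0.346 and PCDHGA7 at 3.53 ± 0.315 (SD, n = 3). PCDHGB4 and PCDHGA9 came next at 2.37 ± 0.168 and 2.17 ± 0.137 and did not differ beyond their spread. The most abundant beta gene, PCDHB14, was at 0.895 ± 0.119 and the most abundant alpha gene, PCDHAC2, at 0.538 ± 0.179. In sgNF2-1 cells PCDHGA12 and PCDHGC3 remained first and second at 20.9 ± 1.34 and 14.9 ± 0.826.

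Reads shared between members limit what a single count means. All 15 alpha genes share 2866 exonic bases and all 22 gamma genes share 2181, whereas no exonic base is shared by the beta genes. PCDHGA3 had 0 to 3 counts in a library while PCDHGC3 had 726 or more, so reads of the gamma constant exons were not added to every gamma gene. How the authors' counting treated such reads is not given in the sources used here. Within the exons that belong to one gene only, the share of 150-base words found in a transcript of another gene was 0 for 25 of the 53 members and at most 16.2%, in PCDHB8. It was 0 for PCDHB7, PCDHGA2, PCDHGA7, PCDHGA12, PCDHGC3 and PCDHAC2. It was 3.28% for PCDHB14, 10.5% for PCDHB13, 12.8% for PCDHB10, 13.6% for PCDHGB5 and 14.8% for PCDHGB4, and the values of these genes carry that uncertainty. With words of 75 bases the share was 0 for 11 members and at most 34.5%, again in PCDHB8, and it was 5.51% for PCDHB7, 4.56% for PCDHGA2, 5.23% for PCDHGA12, 7.76% for PCDHB14, 18.5% for PCDHB13 and 26.3% for PCDHB10. It stayed at 0 for PCDHGA7, PCDHGC3 and PCDHAC2.

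Among the 38 other protein-coding genes between the clusters or within 1 Mb of them, 33 were tested, 3 were called lower and 2 higher, where 9.32% and 8.42% of all tested genes were, and their median log2 fold change was 0.14. TAF7, a TFIID subunit whose gene lies between the beta and gamma clusters, had 2376, 2300 and 2459 counts in sgCtrl and 2833, 2266 and 2253 in sgNF2-1 (log2 fold change 0.04, SE 0.08, adjusted p = 0.74, edgeR). On the alpha side the nearest tested gene, ZMAT2, a splicing factor, was at -0.14 (SE 0.08, adjusted p = 0.202, edgeR). On the gamma side DIAPH1, a formin that nucleates actin filaments and whose gene begins 2035 bases after the last member, was at 0.31 (SE 0.08, adjusted p = 0.00296, edgeR), under the fold limit. The nearest protein-coding gene on each side and TAF7, the only tested one of 3 protein-coding neighbours inside the locus, were thus not called.

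**Figure D4:**
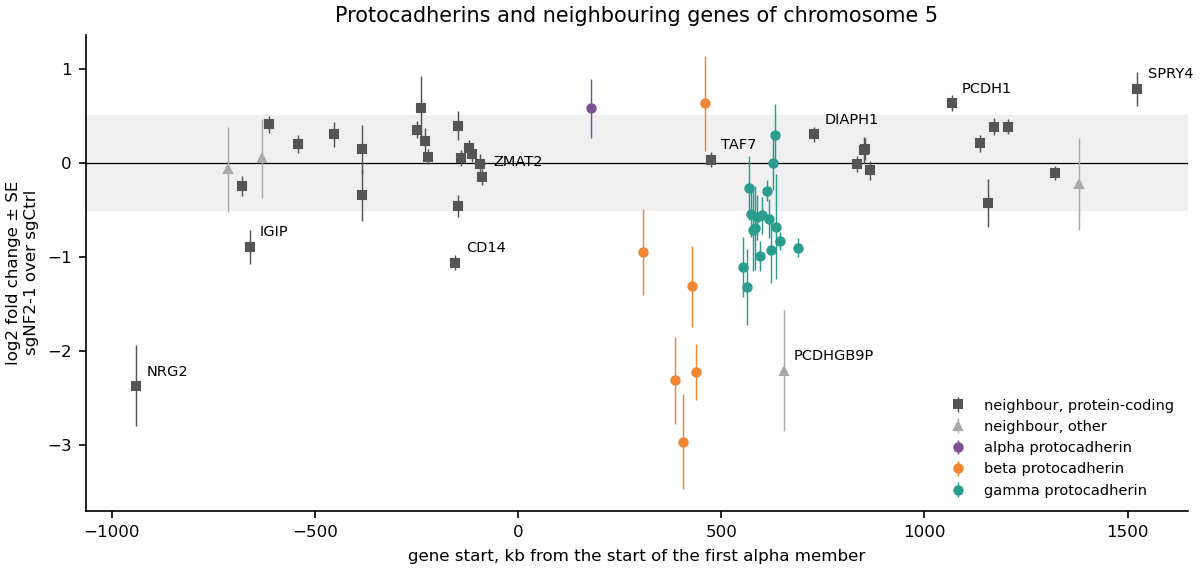
Fitted log2 fold change with its standard error (vertical axis) of tested protocadherins and neighbouring genes against the distance of the gene start from the start of the first alpha member in kilobases (horizontal axis), with the fold limit of 0.5 shaded. TAF7 at 0.04 and DIAPH1 at 0.31 lie in the shaded band beside beta and gamma genes that reach -2.96 and -1.32.

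The called protein-coding neighbours lay 152435 to 797446 bases from the locus. Neighbours that were not called, such as PURA and GNPDA1, lay in the same range, so nothing is read from these distances. CD14, a lipopolysaccharide co-receptor whose gene ends 152435 bases before the first member, fell from 2144, 2189 and 2245 counts to 1165, 987 and 1006 (log2 fold change -1.06, SE 0.08). NRG2, a neuregulin ligand of ERBB receptors, fell from 31, 29 and 30 counts to 4, 6 and 7 (log2 fold change -2.37, SE 0.43, adjusted p = 0.000129, edgeR). IGIP fell with a log2 fold change of -0.89 (SE 0.18). On the other side PCDH1, a protocadherin outside the clusters, rose from 1040, 1146 and 937 counts to 1721, 1583 and 1541 (log2 fold change 0.64, SE 0.09), and SPRY4, a feedback inhibitor of receptor tyrosine kinase signalling, rose with 0.79 (SE 0.18). Of the 61 neighbours that are not protein-coding, 4 were tested. The only one called was the pseudogene PCDHGB9P inside the gamma cluster, with 12, 19 and 16 counts in sgCtrl and 9, 0 and 1 in sgNF2-1 (log2 fold change -2.21, SE 0.65, adjusted p = 0.00966, edgeR). Its value was -4.57 without sgNF2-1 replicate 1, and the call was lost with DESeq2 and without sgNF2-1 replicate 2 or 3.

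Among known regulators of the locus 2 transcripts were called. Of a list of 31 genes for CTCF, cohesin, DNA methylation and other chromatin factors, 30 were tested, 2 were called lower and none higher, where 9.32% and 8.42% of all tested genes were, with a median log2 fold change of -0.04 beside -0.003 over all genes. CTCF had 584, 629 and 502 counts in sgCtrl and 739, 671 and 527 in sgNF2-1 (log2 fold change 0.18, SE 0.10, adjusted p = 0.194, edgeR). RAD21, a cohesin subunit, was at -0.06 (SE 0.08, adjusted p = 0.621, edgeR). Other listed cohesin genes, named after their values were seen, varied. SMC1A was at -0.284 (SE 0.085, adjusted p = 0.0115, edgeR) and PDS5B at -0.477 (SE 0.109, adjusted p = 0.00138, edgeR), both under the fold limit. SMC3, STAG1 and STAG2 were at -0.135, -0.053 and 0.002. UHRF1, which brings DNMT1 to newly replicated DNA, fell from 828, 826 and 686 counts to 567, 486 and 529 (log2 fold change -0.56, SE 0.10, adjusted p = 0.000136, edgeR). ESCO2, which acetylates cohesin during replication, had 46, 96 and 70 counts in sgCtrl and 57, 39 and 35 in sgNF2-1 (log2 fold change -0.70, SE 0.26, adjusted p = 0.0411, edgeR). That call was lost with DESeq2, with the replicate block and without sgCtrl replicate 2 or 3 or sgNF2-1 replicate 2 or 3. Increases under the fold limit, also named after their values were seen, were found for TRIM28 and WIZ. TRIM28, a corepressor of KRAB zinc finger proteins, was at 0.459 (SE 0.083, adjusted p = 0.000113, edgeR). WIZ was at 0.428 (SE 0.086, adjusted p = 0.000383, edgeR). Without sgNF2-1 replicate 1, TRIM28 was called higher.

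Transcripts were also examined for proteins that cleave, bind or signal with protocadherins. Of 26 listed genes, 25 were tested, 1 was called lower and 4 higher, where 9.32% and 8.42% of all tested genes were, with a median log2 fold change of 0.06. ADAM10, the metalloprotease that sheds protocadherin ectodomains, fell from 3590, 4099 and 3525 counts to 2531, 2341 and 1889 (log2 fold change -0.73, SE 0.08). PSEN2, a catalytic subunit of the gamma-secretase that cuts the remaining stub, rose from 188, 147 and 139 counts to 260, 227 and 214 (log2 fold change 0.57, SE 0.14, adjusted p = 0.00306, edgeR), a call that was lost without sgCtrl replicate 2. FYN, a Src-family kinase, rose from 433, 435 and 345 counts to 1268, 1163 and 948 (log2 fold change 1.48, SE 0.10). CYFIP2, a subunit of the WAVE complex that controls branched actin, rose from 20, 21 and 18 counts to 82, 74 and 63 (log2 fold change 1.89, SE 0.26). AXIN1, a scaffold of the beta-catenin destruction complex, rose with 0.71 (SE 0.09). Without sgCtrl replicate 1, PTK2B, a focal adhesion kinase relative, was also called lower.

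**Figure D5:**
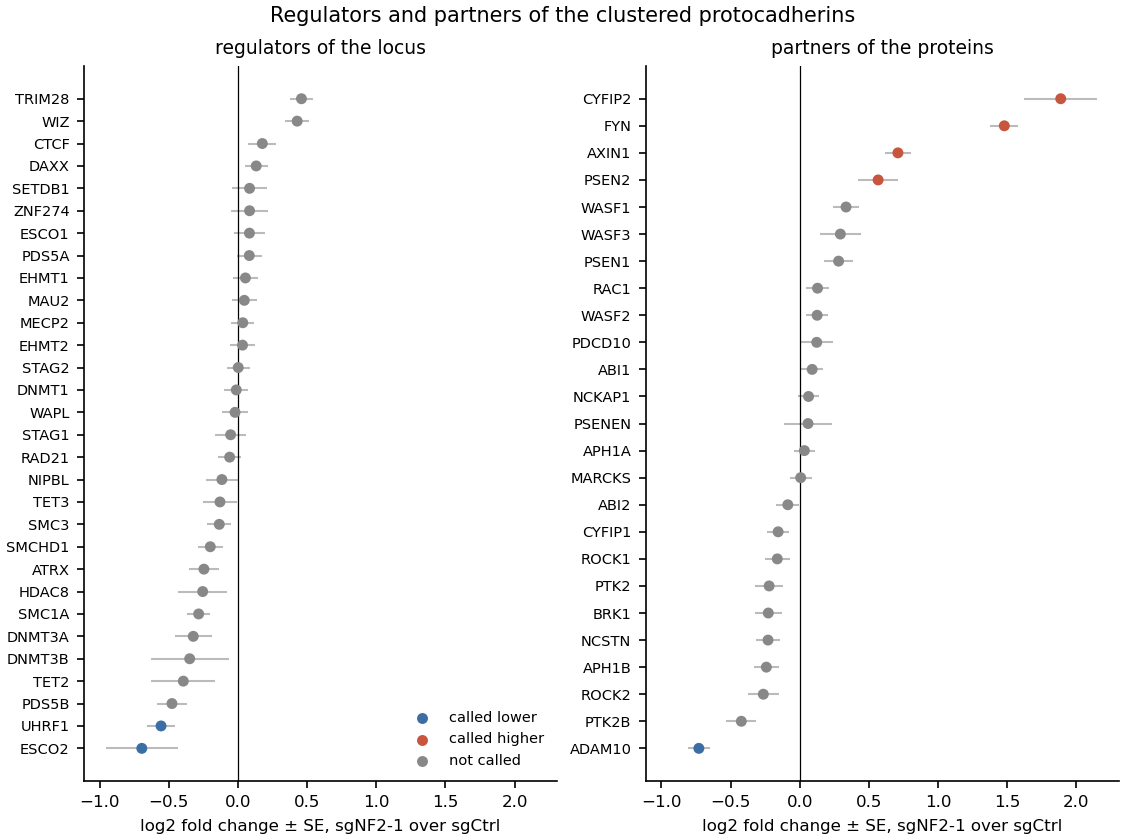
Fitted log2 fold change with its standard error (horizontal axis) of the 30 tested regulators of the locus and the 25 tested partners of the proteins, with blue points called lower, red points called higher and grey points not called. Among the regulators ESCO2 and UHRF1 are called lower, and among the partners ADAM10 at -0.73 is called lower and CYFIP2 at 1.89 and FYN at 1.48 are called higher.

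The tested fibroblast and mesenchymal markers were lower in sgNF2-1 cells, as were the beta and gamma sums. The marker lists were chosen with earlier results of these data known, so their counts are given as a description. For comparison with the lists below, 9.32% of all tested genes were called lower and 8.42% higher. Of 11 fibroblast and mesenchymal markers, 7 were tested and all 7 were called lower, with a median log2 fold change of -2.95. The summed level of the 11 was 243 to 279.7 CPM in sgCtrl libraries and 70.6 to 73.8 CPM in sgNF2-1 libraries. DCN and LUM were at 0 in all libraries. PDGFRA and FAP, not tested, had at most 3 counts in a library, too few to show a difference in either direction. Of 10 mesothelial markers, 9 were tested, 3 were called lower (WT1, KRT19 and PDPN) and 2 higher (MSLN and THBD), and their sum was 3284 to 3696 CPM in sgCtrl and 2890 to 3542 CPM in sgNF2-1. Of 10 neuronal markers, 3 were tested, MAP2 was called lower and SYT1 higher, the sum was 19.4 to 27.1 CPM against 16.8 to 18.6 CPM, and SNAP25, STMN2 and ELAVL4 were at 0 in all libraries. Of 4 endothelial markers 2 were tested, PECAM1 was called lower and CDH5, at 0.37, was not called, and the sum was 6.39 to 8.71 CPM against 1.99 to 3.30 CPM. The part of these changes in the protocadherin values was not tested.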

How the data were processed

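Gene counts and FPKM of 6 RNA-seq libraries were used. Per the labels and the submitters' processing notes, the authors aligned reads to hg38 with HISAT2, used StringTie 1.3.3b and counted reads per gene with featureCounts 1.5.0-p3. The deposited counts are raw, and the deposited FPKM divide them by depth and by the summed exon length, which for alpha and gamma members includes shared exons. Strand settings and the treatment of reads in shared exons are not given in the sources used here, so reads of a gene and of an antisense neighbour cannot be told apart. Identifiers, exons and coordinates were checked against GENCODE 29, which held all 58735 genes.

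Counts were filtered (filterByExpr, minimum count 10, minimum total 15), TMM-scaled and tested with edgeR 4.0.16 (quasi-likelihood, R 4.3.3), Benjamini-Hochberg adjusted over 14179 genes. A gene was called at an adjusted p under 0.05 and an absolute log2 fold change over 0.5. The SE printed with a log2 fold change is its absolute value divided by the square root of the F statistic of that test. The fit was tested on simulated data in which changes were planted only in genes with higher mean counts. That test does not cover members with few counts. The members and lists were chosen with earlier results of these data known. A further marker list is not reported here. Per cluster, the 5 members with the highest sgCtrl mean and the 5 tested members with the largest absolute log2 fold change were named with all counts. *NF2*, CTCF, RAD21, the genes nearest the locus and called list genes were also named. Cluster sums, ratios and levels had no test. Depth, 14782423 to 17416463 counts, limits members with few counts. Intervals (95%, exact) and the floor of 3 counts cover counting error only. Promoter windows came from RefSeq (GRCh38.p14). Alternatives were DESeq2 1.42.0, other scalings, filters and call rules, a replicate block and leaving out libraries.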

Additional observations from a re-analysis of the deposited data

How the results depend on the processing

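The 12 members called lower numbered 7 to 13 when single libraries were left out, 11 with DESeq2, 15 without the filter and 8 with at least 10 counts required in every library, and none was called higher in any of these fits. PCDHB7, PCDHB10, PCDHB14, PCDHGA7, PCDHGA12 and PCDHGC3 kept their call in each of the alternative fits that tested them, and the other 6 lost it in at least 1. The fits reuse the libraries by which the family was selected, so a kept call describes the processing and is no independent evidence. The fitted log2 fold changes of PCDHGB7 and PCDHGA11, neither called, changed sign without sgNF2-1 replicate 1 (-0.19) and without sgCtrl replicate 2 (0.27).

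Same-numbered libraries did not deviate together (correlations -0.032, 0.057 and 0.05), so replicate numbers were not taken as pairs. With the replicate number as a block 12 members were called lower, 4 neighbours lower and 2 higher, and 1 regulator was called lower in place of 2, with ESCO2 lost. The cluster log2 ratios from same-numbered libraries were 0.30 (alpha), -1.84 (beta) and -0.75 (gamma).

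Without the fold limit 2351 genes were called lower and 2515 higher, and the neighbours had 7 higher, the regulators 4 lower and 2 higher, and the partners 4 lower. With at least 10 counts in every library 2 neighbours were lower. DESeq2 called 1 regulator lower. Leaving out single libraries gave 1 to 3 regulators lower, 0 to 1 higher and 1 to 2 partners lower. In all these cases the cause was not tested beyond the setting itself.

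The cluster log2 ratios spanned 0.031 to 0.567 (alpha), -1.96 to -1.71 (beta) and -0.83 to -0.69 (gamma) when single libraries were left out. Changes of members, chosen after seeing the data, gave -1.09 for alpha without PCDHAC2, -1.70 for beta without PCDHB14 and -0.53 for gamma without PCDHGA12 and PCDHGC3. Depth limits the 29 members under the filter, none of which had over 24 counts in a library.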
